A study of Mus musculus with 18 samples.

Results

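Cirbp and Rbm3 encode a pair of small RNA-binding proteins whose messenger RNA (mRNA) rises when mammalian cells or tissues are mildly cooled. All probe sets of the array that the platform annotation gives to either symbol were taken, which came to 2 of 22626 probe sets, 1 for each gene. The probe set 1416332_at carries the symbol Cirbp alone. The probe set 1422660_at carries both Rbm3 and Rbm3-ps, the symbol of a pseudogene, so that reads of the gene and of the pseudogene cannot be told apart, and it is called the Rbm3/Rbm3-ps probe set here. Both passed the filter on low values that left 8321 genes for testing. Cirbp was selected on measured values, its higher level after paraquat in wild-type cerebellum. That difference, and every comparison of Cirbp that uses wild-type arrays, is therefore given as a description without a p-value. How Rbm3 entered the choice is not recorded, but the pair was chosen with earlier results of these data known. The p-values of Rbm3/Rbm3-ps hold only if its own values had no part in that choice, which cannot be checked here.

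The cerebella of male mice 80 ± 5 days old were profiled on Affymetrix arrays, 3 arrays for each of 6 groups. The mice were wild-type, lacked apolipoprotein D (ApoD knock-out), or carried a human ApoD transgene, over-expressed in neurons. ApoD is a secreted lipid-binding protein of the lipocalin family. Each genotype received 1 intraperitoneal injection of saline, or of paraquat (PQ) at 30 mg/kg in 200 µl of saline, and the tissue was taken 6 h later from 9 mice per group. Paraquat is a herbicide that generates superoxide by redox cycling. Each array held RNA pooled from 3 mice, so that replicate error here is the variation between pools of separate animals. The labels give no promoter by name and no founder line for the transgenic mice. Housing was at 25 ± 1 °C with 12 h of light; the labels give no body temperature and no time of day of the injection.

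CIRBP and RBM3 belong to the glycine-rich RNA-binding proteins, with 1 RNA recognition motif each. Both bind untranslated parts of mRNAs and pre-mRNAs and act on splicing, polyadenylation site choice, mRNA stability and translation. In mouse tissue and cultured cells they follow small changes of temperature, including the daily rhythm of body temperature, in the direction opposite to the heat shock genes. In mouse brain RBM3 has been studied for its part in keeping synapses after cooling, and CIRBP for its binding to the mRNA of Clock. Cirbp is also induced by ultraviolet light and mild hypoxia, so that neither mRNA reads temperature alone.

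The 5′ flank of mouse Cirbp is shown because its response to mild cold has been mapped to a short GC-rich motif, TCCCCGCC, termed the mild cold response element. The sequence is the plus strand of chr10:80167589-80167838 (RefSeq, GRCm38.p6) and covers the 250 bases before an annotated start of Cirbp, with the motif in capitals.

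Cirbp: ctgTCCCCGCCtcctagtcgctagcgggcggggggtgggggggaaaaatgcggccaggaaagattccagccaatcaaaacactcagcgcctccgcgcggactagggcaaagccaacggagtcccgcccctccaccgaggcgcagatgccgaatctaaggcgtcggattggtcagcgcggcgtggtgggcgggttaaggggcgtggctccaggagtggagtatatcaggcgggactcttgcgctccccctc

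The motif was present once, 247 to 240 bases before the start, on the plus strand. Of 32851 annotated promoter windows of this length, 4.64% held TCCCCGCC on either strand. A search for GGGCGG, the core that Sp1 family factors bind, gave 3 matches, and 32.7% of windows held at least 1. There were 2 matches to CCAAT, a motif held by 33.8% of windows. Neither the full glucocorticoid receptor motif, AGAACA followed by TGTTCT after 3 free bases, in 0.00913% of windows, nor AGAACA alone, in 16.1%, was found in this window. The heat shock factor motif, GAA, TTC and GAA with 2 free bases between them, was not found either, and 0.466% of windows held it. A second annotated Cirbp window held 4 matches to GGGCGG and none of the other 5 motifs. These matches describe letters in a window and no binding was measured. Of the pair, only Cirbp was matched to a promoter sequence.

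The tissue and the labels were checked first. All 10 granule neuron markers of the list used and 8 of 9 Purkinje neuron markers passed the filter on low values. Of all 12394 genes 8321 passed, and so did 3 of 6 forebrain markers, so that passing the filter does not by itself identify the tissue. The log2 level of Apod was 12.46 ± 0.084 (SD, n = 3) in wild-type saline, 8.37 ± 0.15 in knock-out saline and 12.29 ± 0.052 in transgenic saline. Under paraquat it was 12.66 in wild-type, 9.54 in knock-out and 12.25 in transgenic mice. The rise in knock-out mice, 1.16, had an adjusted p of 3.2e-05 by limma, and its source was not tested. The knock-out arrays were thus far below the others under either treatment, while the transgenic arrays were not above the wild-type. The probe set was designed for mouse Apod and the transgene is human, so that it does not check the transgene. The second knock-out paraquat array stood apart, with a median log2 value of 6.98 against 7.10 to 7.15 elsewhere. The difference between the 3′ and 5′ probe sets of the pyruvate carboxylase control, a sign of labelling and RNA length, was 2.25 on that knock-out array, 1.82 on transgenic saline array 3 and 1.95 on transgenic paraquat array 3, against 2.63 to 3.16 on the other 15 arrays. For the actin and Gapdh controls the knock-out array, at 0.81 and 0.03, lay within the range of the others. The transgenic saline and paraquat arrays 3 were lowest there too, at 0.49 and 0.47 for actin and -0.16 and -0.10 for Gapdh.

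Cirbp had its highest group means in wild-type and knock-out paraquat. The lowest knock-out paraquat array, at 8.97, was close to the highest transgenic saline array, at 8.91. In wild-type mice the log2 signal of Cirbp read 8.82, 8.47 and 8.70 with saline and 9.70, 9.79 and 9.87 with paraquat. It was 8.49, 8.48 and 8.50 in knock-out saline and 9.54, 9.25 and 8.97 in knock-out paraquat. In the transgenic mice it was 8.37, 8.53 and 8.91 under saline and 8.65, 8.70 and 8.67 under paraquat. Within wild-type and within knock-out every paraquat array was above every saline array, whereas in transgenic mice the paraquat values lay inside the range of the saline values. Of the 8321 genes tested, 16.6% had their wild-type paraquat arrays all above the saline arrays, and 5% did so in knock-out.

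On a linear scale the mean Cirbp signal was 407 in wild-type saline and 884 in wild-type paraquat. The wild-type difference was 1.12 on the log2 scale (SE 0.14), or 2.18-fold, the 27th largest rise of all genes tested, where 1.54% of genes were called higher. This is the value that led to the choice of the gene. In knock-out mice Cirbp rose by 0.76 (SE 0.14), with a 95% confidence interval from 0.47 to 1.05 and an adjusted p of 0.0054 by limma, where 0.793% of genes were called higher. With no other arrays in the fit than these 6, the same difference had an adjusted p of 0.072. The linear mean there went from 360 to 618, a 1.69-fold rise that ranked 42nd. Both differences stood against medians over all genes of 0.02 in wild-type and -0.09 in knock-out.

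In transgenic mice the difference of Cirbp was 0.07 (SE 0.14), with an interval from -0.22 to 0.37 and an adjusted p of 1.0. The linear mean was 394 under saline and 409 under paraquat. In this genotype 0% of genes were called by limma in either direction, and 118 had an unadjusted p under 0.05. The interval for transgenic mice lay below that for knock-out mice. The direct test of the difference between these paraquat effects, transgenic minus knock-out, gave -0.69 (SE 0.20) with an interval from -1.10 to -0.27, but an adjusted p of 0.51 by limma, in a comparison where 0.0481% of genes were called. This difference was thus not called, whereas with array weights it was -0.81 with an adjusted p of 0.0040. The weighted fit leaned on single arrays, with weights of 4.12 for knock-out paraquat array 1 and 4.63 for transgenic paraquat array 2. No other array of those groups had a weight above 0.98.

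**Figure D1:**
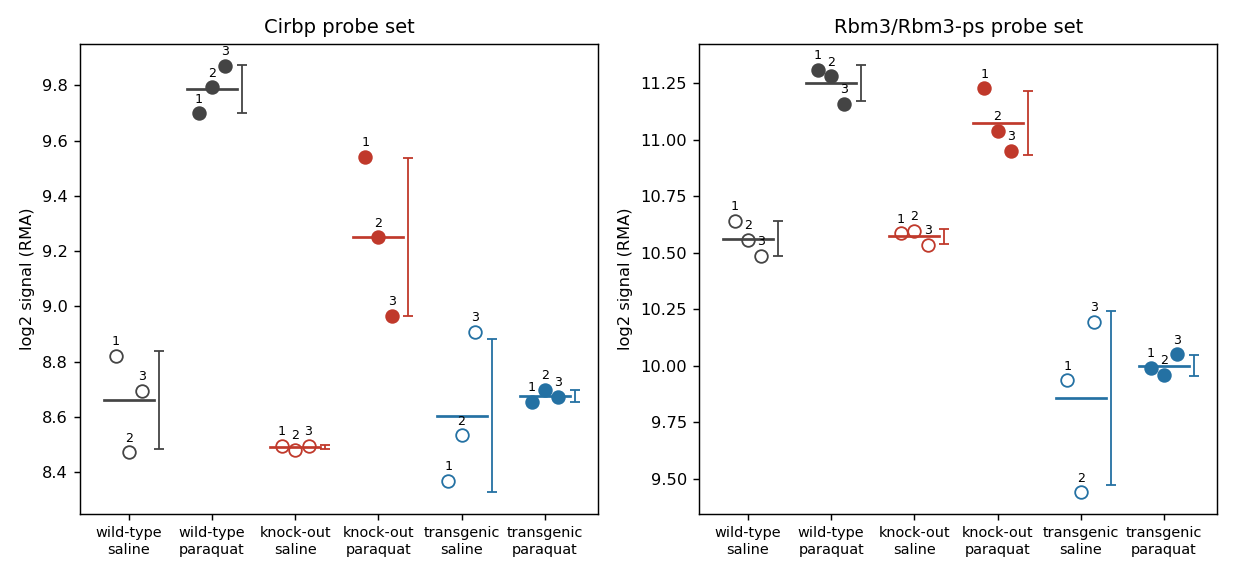
Log2 signal of Cirbp (left) and of the Rbm3/Rbm3-ps probe set (right) on each of the 18 arrays, by genotype and treatment. Each point is 1 array and each bar a group mean. Group means of Cirbp lie between 8.49 and 8.68 in all saline groups and in transgenic paraquat, while the means of Rbm3/Rbm3-ps in both transgenic groups are 9.86 and 10.00.

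Under paraquat Cirbp was lower in transgenic than in knock-out mice by a log2 difference of -0.58 (SE 0.14), with an adjusted p of 0.012, where 5.84% of genes were called lower. All transgenic paraquat arrays were below all knock-out paraquat arrays, as for 7.81% of genes. Under saline the same comparison gave 0.11 (SE 0.14) with an interval from -0.18 to 0.41 and an adjusted p of 0.66. Without the first knock-out paraquat array, which had the highest Cirbp signal of its group, the paraquat difference was -0.43 with an adjusted p of 0.052, and a fit of the 6 arrays of these groups alone gave -0.58 with an adjusted p of 0.15.

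As a description, the Cirbp level of the transgenic paraquat group differed from wild-type paraquat by -1.11 (SE 0.14), and that of knock-out paraquat by -0.54. Under saline, knock-out and transgenic differed from wild-type by -0.17 and -0.06. The paraquat effect of Cirbp in knock-out minus that in wild-type was -0.36 (SE 0.20), and all 3 knock-out paraquat arrays were below all 3 wild-type paraquat arrays, as for 12.1% of genes. The median of all genes in the knock-out minus wild-type comparison under paraquat was itself -0.12. In order of level, wild-type paraquat was highest (9.79 ± 0.086, SD, n = 3) and knock-out paraquat next (9.25 ± 0.29). Transgenic paraquat (8.68 ± 0.022), wild-type saline (8.66 ± 0.18), transgenic saline (8.60 ± 0.28) and knock-out saline (8.49 ± 0.0079) followed, and among these 4 the arrays of each group overlapped those of the next.

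Rbm3/Rbm3-ps was also higher after paraquat in wild-type mice, and in addition was lower in transgenic mice under both treatments. The log2 signal was 10.64, 10.56 and 10.49 in wild-type saline and 11.31, 11.28 and 11.16 in wild-type paraquat. In knock-out it was 10.59, 10.60 and 10.53 under saline and 11.23, 11.04 and 10.95 under paraquat. In transgenic mice it was 9.94, 9.44 and 10.20 under saline and 9.99, 9.96 and 10.05 under paraquat. Every transgenic array was below every array of the other genotypes. Of all genes, 18.2% and 20% had transgenic saline arrays all below those of wild-type and knock-out. Under paraquat these shares were 27.6% and 7.81%. The paraquat arrays were above the saline arrays without overlap in wild-type and in knock-out, as for 16.6% and 5% of genes, but not in transgenic mice. In order of level, wild-type paraquat (11.25 ± 0.079, SD, n = 3) and knock-out paraquat (11.07 ± 0.14) overlapped, as did knock-out saline (10.57 ± 0.033) and wild-type saline (10.56 ± 0.077), and transgenic paraquat (10.00 ± 0.046) and transgenic saline (9.86 ± 0.38).

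The wild-type rise of Rbm3/Rbm3-ps was 0.69 (SE 0.14), from a linear mean of 1513 to 2439, with an interval from 0.40 to 0.98 and an adjusted p of 0.0074. It was the 70th largest rise, a 1.61-fold change. In knock-out mice the difference was 0.50 (SE 0.14), from 1523 to 2162, with an interval from 0.21 to 0.79. Its adjusted p of 0.061 missed the threshold of 0.05, although all 3 paraquat arrays were higher. Leaving out knock-out paraquat array 3 gave 0.56 with an adjusted p of 0.034, the lowest with 1 array left out. The highest, without knock-out saline array 1, was 0.19. Without the 6 transgenic arrays the difference was 0.50 with an adjusted p of 0.0100. Over the other alternatives the adjusted p by limma reached 0.16. Quantile normalization and array weights each gave 0.61, with adjusted p-values of 0.028 and 2.0e-05. In transgenic mice the difference was 0.14 (SE 0.14), from 949 to 1024, with an interval from -0.14 to 0.43 and an adjusted p of 1.0. With array weights it was 0.40 with an adjusted p of 0.033. The weights leaned on single arrays: 4.12 on knock-out paraquat array 1, and 2.23 and 4.63 on transgenic saline and paraquat arrays 2. Other arrays of these groups had weights of 0.057 to 0.98.

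The differences between these 3 paraquat effects of Rbm3/Rbm3-ps did not pass the test. Transgenic minus wild-type gave -0.55 (SE 0.19) with an interval from -0.95 to -0.14. That interval excludes 0, but the adjusted p was 0.63 by limma, where 0.18% of genes were called. Transgenic minus knock-out gave -0.36 with an interval from -0.76 to 0.05 and an adjusted p of 1.0. Knock-out minus wild-type gave -0.19 with an interval from -0.59 to 0.22 and an adjusted p of 0.87, where 0% of genes were called by limma. These intervals leave room for effects as large as the paraquat effects themselves, so that a like response is not shown.

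**Figure D2:**
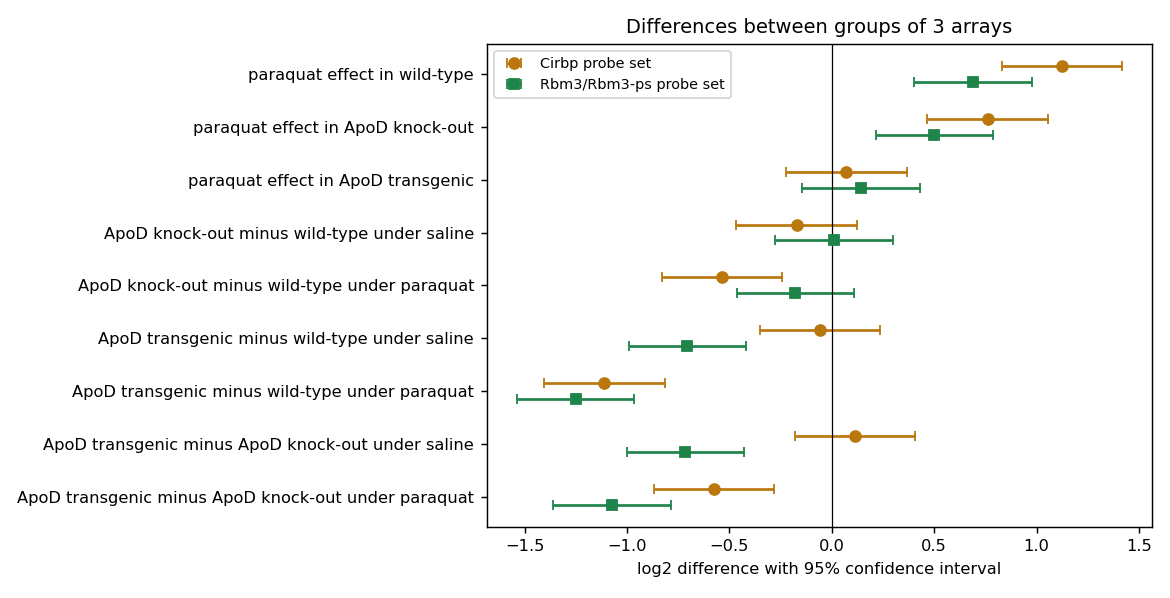
Log2 differences between groups of 3 arrays for Cirbp and Rbm3/Rbm3-ps, with 95% confidence intervals. Paraquat effects of both genes are positive in wild-type and knock-out, intervals in transgenic mice include 0, and in the transgenic comparisons under saline Rbm3/Rbm3-ps lies near -0.7 while Cirbp lies near 0.

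Rbm3/Rbm3-ps was lower in the transgenic cerebellum without any paraquat. Under saline its signal differed from wild-type by -0.71 (SE 0.14), or 1.63-fold lower, with an adjusted p of 0.0070, where 4.39% of genes were called lower. A fit of the 6 arrays of these groups alone gave -0.71 with an adjusted p of 0.050, just above the threshold. Against knock-out under saline it was -0.72, with an adjusted p of 0.0042, where 6.56% were called lower. The second transgenic saline array had the lowest signal of all 18 arrays, at 9.44. Under paraquat the differences were -1.25 against wild-type, with an adjusted p of 1.3e-05, where 14.3% of genes were called lower, and -1.07 against knock-out, with an adjusted p of 1.6e-04. Knock-out minus wild-type was 0.01 under saline, with an interval from -0.28 to 0.30, where 0.024% of genes were called. It was -0.18 under paraquat, with an interval from -0.46 to 0.11 and an adjusted p of 0.50, where 0.012% were called.

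Markers of the choroid plexus, the epithelium that secretes cerebrospinal fluid, also had lower group means in transgenic mice. All 7 markers tested were called lower in transgenic than in wild-type mice under saline, where 4.39% of all genes were, with a median of -1.32. Under paraquat all 7 had lower means, with a median of -0.91, and 5 were called lower, where 14.3% of all genes were. The mean log2 level of these 7 genes was 6.85, 7.23 and 6.22 on the transgenic saline arrays and 7.76, 7.42 and 6.80 on the transgenic paraquat arrays. It was 7.98 to 8.24 in wild-type saline and 8.04 to 8.21 in knock-out saline. With paraquat it was 8.14 to 8.23 in wild-type and 7.67 to 8.13 in knock-out, which overlapped the transgenic range. Against knock-out, 7 markers were called lower under saline but 2 under paraquat, where 6.56% and 5.84% of all genes were. The transgenic saline array with the lowest Rbm3/Rbm3-ps signal had the highest choroid plexus mean of its group. Under each treatment, the transgenic array with the highest Rbm3/Rbm3-ps signal had the lowest choroid plexus mean. These orders hold 3 arrays a group and carry no test, and in both groups the array with the lowest choroid plexus mean was the third. Ttr, which encodes the thyroid hormone carrier transthyretin, was at 13.11 in transgenic saline and 14.45 in wild-type saline. The part of these markers in the Rbm3/Rbm3-ps difference was not tested, and in whole tissue fewer cells of a type and less RNA per cell cannot be told apart. Without the third transgenic arrays of both treatments, which had the low 3′ to 5′ differences, the Rbm3/Rbm3-ps difference from wild-type under saline was -0.87, with an adjusted p of 9.6e-04.

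Lists of other RNA-processing genes were set beside this. Of 20 genes for serine- and arginine-rich (SR) splicing proteins and the CLK kinases that phosphorylate them, 7 were called lower than in wild-type under saline and none higher, where 4.39% of all genes were called lower, and the median was -0.35 beside -0.01 for all genes. Of 25 other genes named RBM for their RNA-binding motif, 2 were called lower under saline and 7 under paraquat, where the shares of all genes were 4.39% and 14.3%, with medians of -0.16 and -0.07 beside -0.01 and -0.06 for all genes. The saline difference of Cirbp, -0.06, lay near the median of all genes. The pair thus had the same direction after paraquat in wild-type and knock-out mice, while their baseline in transgenic mice differed.

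**Figure D3:**
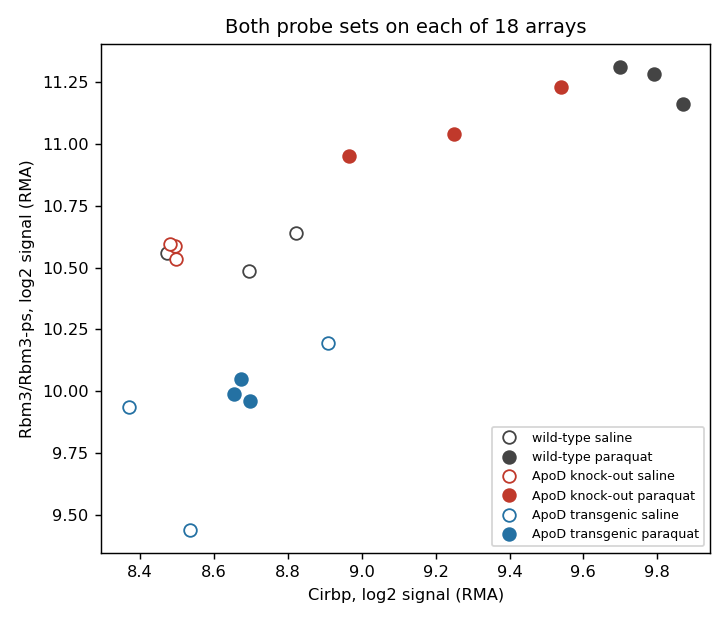
Log2 signal of Cirbp (horizontal) against Rbm3/Rbm3-ps (vertical) on each of the 18 arrays, marked by genotype and treatment. Wild-type and knock-out paraquat arrays lie to the upper right of the saline arrays, and the 6 transgenic arrays form a separate low band at 9.44 to 10.20 on the vertical axis.

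Whether pools with more Cirbp than their group mean also had more Rbm3/Rbm3-ps was tested on the deviations from the 6 group means. Over 18 arrays Pearson's r was 0.50 (exact two-sided permutation within groups, p = 0.28, adjusted 0.43) and Spearman's rho was 0.27 (p = 0.43 by the same permutation, adjusted 0.43), adjusted over both. Without the third transgenic saline array and the first knock-out paraquat array, the 2 farthest from the median, r was -0.21 (permutation p = 0.65). The positive value therefore rested on those arrays. Within the 9 saline arrays r was 0.48 and within the 9 paraquat arrays 0.66, with exact permutation p-values of 0.59 and 0.34. The pooled within-group SD was 0.18 for Cirbp and 0.17 for Rbm3/Rbm3-ps.

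Lists of related genes showed few calls apart from the glucocorticoid response. Of 27 heat shock genes, which in mammalian cells move opposite to the cold-inducible pair with temperature, 0 were called higher or lower in wild-type mice, where 0.469% of all genes fell, with a median of -0.12 beside 0.02 for all genes. In knock-out mice 2 of 27 fell and none rose, where 1.47% of all genes fell, with a median of -0.26 beside -0.09. The 2 were Dnajb1, an HSP70 co-chaperone, with -0.73 (adjusted p 0.016), and Cryab, a small heat shock protein, with -0.53 (adjusted p 0.025). Dnajb1 was at -0.38 and Cryab at -0.35 in wild-type, with adjusted p-values of 0.36 and 0.23, and in transgenic mice 0 of 27 were called. Body temperature was not measured in the sources used here, and whether it fell was not tested.

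None of the 18 regulators and reported targets of the pair was called under paraquat in any genotype. Of all genes, 1.54% were called higher and 0.469% lower in wild-type mice, 0.793% and 1.47% in knock-out and 0% in transgenic mice, so that a list of this size without a call is near the background. Clock, whose mRNA CIRBP binds in mouse cells, differed by 0.06 in wild-type, -0.09 in knock-out and 0.07 in transgenic mice. Rtn3, through which RBM3 acts on synapses in mouse brain, gave -0.04, -0.16 and -0.06. Ntrk2, the receptor for brain-derived neurotrophic factor that acts upstream of RBM3 in mouse brain, gave 0.11, 0.06 and -0.05. No circadian clock gene of 18 was called in any genotype, with medians of 0.04, -0.09 and -0.01. The 25 other RBM-named genes and the 20 SR protein and CLK kinase genes likewise had no call under paraquat, again near those shares, with wild-type medians of -0.03 and -0.05.

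Among 5 genes for cold-shock domain proteins, which are named for a fold shared with bacterial cold-shock proteins, 1 rose in wild-type mice, where 1.54% of all genes did. Carhsp1, an mRNA-binding protein, rose by 0.58 (SE 0.11, adjusted p 0.0069) from 8.37 to 8.95. It was at 0.43 in knock-out mice, with an adjusted p of 0.052, and at 0.06 in transgenic mice. Of 19 hypoxia response genes, 2 rose and 1 fell in wild-type and 1 rose and 1 fell in knock-out mice, where the shares of all genes that rose and fell were 1.54% and 0.469%, and 0.793% and 1.47%. Slc2a1, the glucose transporter of the blood-brain barrier, rose by 0.81 and 0.75 (adjusted p 0.019 and 0.032), and Hk2, a hexokinase, fell by 0.50 and 0.72 (adjusted p 0.026 and 0.0020). The hypoxia medians, 0.05 and 0.01, lay near those of all genes.

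Of 29 glucocorticoid response genes, 24 rose in wild-type mice, where 1.54% of all genes did, and 20 rose and 2 fell in knock-out mice, where 0.793% and 1.47% did. None was called in transgenic mice, where 0% of genes were. The medians were 1.13, 0.84 and 0.26. Sgk3, a kinase of the SGK family, rose by 2.38 and 2.04 in wild-type and knock-out, and Fkbp5, a co-chaperone that dampens glucocorticoid receptor signalling, by 2.50 and 2.42, all with adjusted p-values of 7.3e-06 or below by limma. This list was drawn up with earlier results of these arrays known, so that its counts are no independent evidence of its direction. It moved with Cirbp across the genotypes, and its part in the Cirbp difference was not tested.

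**Figure D4:**
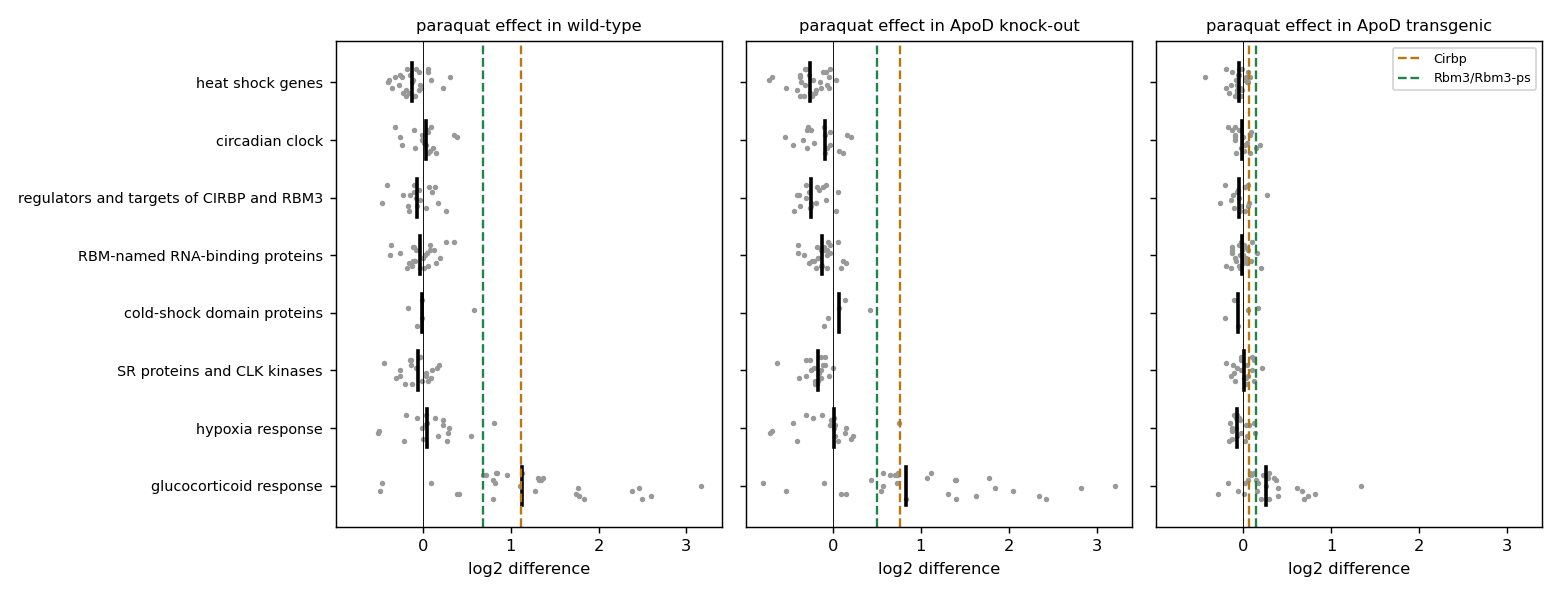
Paraquat effects as log2 differences in wild-type, knock-out and transgenic mice for the genes of 8 lists. Grey points are genes, black bars are list medians, and the dashed lines mark Cirbp and Rbm3/Rbm3-ps. Apart from the glucocorticoid list, with medians of 1.13, 0.84 and 0.26, the lists centre between -0.26 and 0.08.

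The genes whose level followed Cirbp most closely over the 18 arrays were Ada (r = 0.93), Thbs3, Polr3e and Rasd1 (0.92 each), Nqo1, Gadd45g and Zfp36 (0.91 each) and Msrb1 (0.90). These correlations describe the pattern of groups over arrays that share the same pools, and carry no test. Ada, which encodes adenosine deaminase, had paraquat effects of 1.96, 1.59 and 0.42 in wild-type, knock-out and transgenic mice. Polr3e, a subunit of RNA polymerase III, had effects of 1.36, 1.11 and 0.15. The 8 genes were between -0.19 and 0.21 in transgenic minus wild-type mice under saline, as Cirbp was. A transgenic saline level like that of Cirbp was part of their choice, so that this is a description. The most opposite were Grk5 (r = -0.89), Slco1c1 and Sox21 (-0.87 each) and Uncx (-0.86). The Rbm3/Rbm3-ps probe set came 117th of 8320 genes in likeness to Cirbp, with r = 0.77.

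A different set of genes followed Rbm3/Rbm3-ps, among which Cirbp came 337th. Highest were Pigp (r = 0.97), Rfc1 and Gtf2b (0.95 each), Cnbp (0.94) and Stxbp3, Pspc1, Nt5c3 and Dpm1 (0.93 each). Since they were picked for likeness over these arrays, a low transgenic level was part of the choice. Their transgenic minus wild-type differences under saline, given as a description, ran from -0.56 for Cnbp, a nucleic acid-binding zinc finger protein, to -0.23 for Gtf2b, a general transcription factor. Their wild-type paraquat effects ran from 0.17 for Dpm1 to 0.90 for Stxbp3, a syntaxin-binding protein. Lowest were Lnx2 (r = -0.94), Erc1 (-0.93), Ankrd40 and Denn2b (-0.92 each). No gene stood in both sets.

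**Figure D5:**
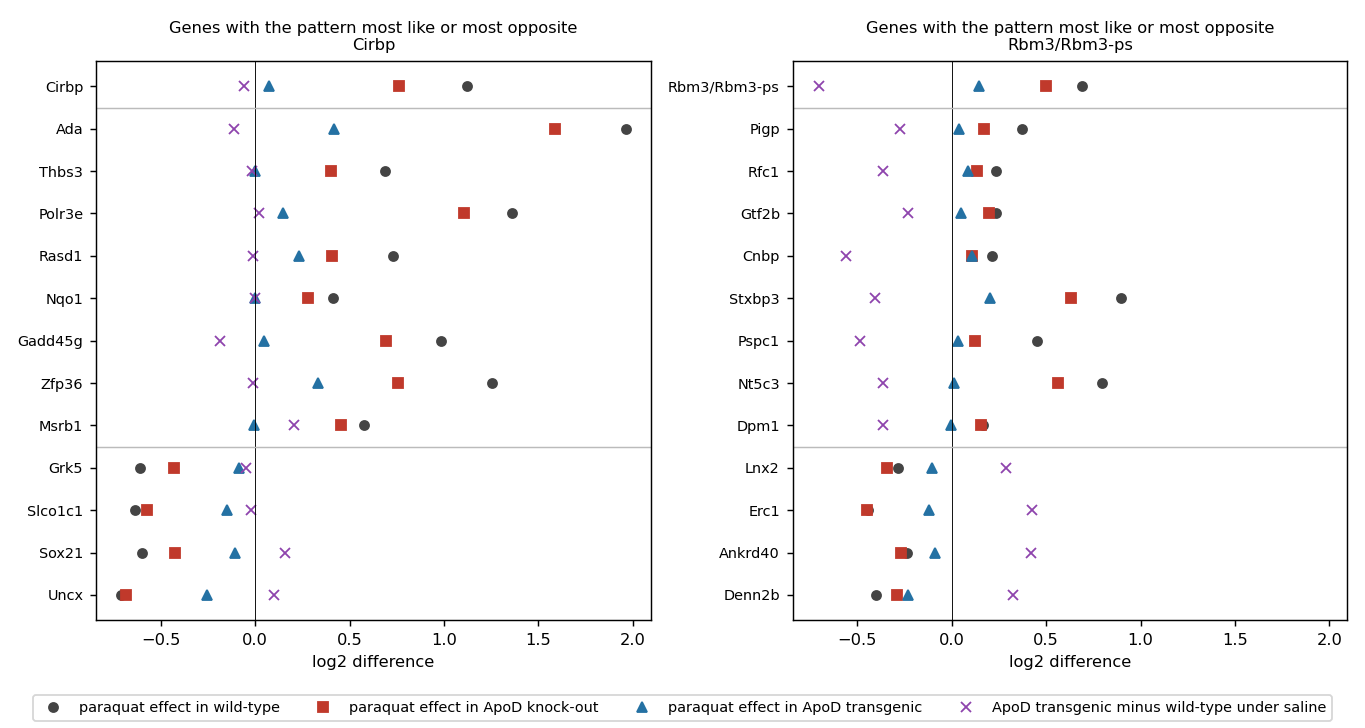
Log2 differences of the genes whose level over 18 arrays was most like or most opposite that of Cirbp (left) and Rbm3/Rbm3-ps (right). Circles, squares and triangles are the paraquat effects in wild-type, knock-out and transgenic mice, and crosses are transgenic minus wild-type under saline. The crosses lie near 0 on the left and away from 0 on the right, where the 8 most like genes have negative values. The genes on each side were picked for their pattern over these arrays.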

How the data were processed

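RNA of cerebellum was measured on 18 arrays in 6 groups of 3. The authors deposited log2 values, 1 per probe set and array, from 3.13 to 14.9; the submitters' processing notes name RMA, with no version, and scanner files were not used here. The platform annotation, possibly outdated, supplied the symbols: 20380 probe sets had 1 symbol, 691 several and 1555 none. For each of 12393 genes the probe set of highest mean was used, and the Rbm3/Rbm3-ps probe set was added although it carries 2 symbols. Genes at or above the 40th percentile on 3 or more arrays were kept (8321). All arrays were fitted with 6 group means in limma 3.58.1 (lmFit, eBayes) under R 4.3.3, with 12 residual degrees of freedom and two-sided p-values adjusted by Benjamini-Hochberg over all genes of a comparison, called under 0.05. The median 95% half-width was 0.27. The fit was tested on simulated data. An exact test of 3 against 3 arrays cannot go below p = 0.1. The number of arrays limits the precision. Arrays whose titles name no paraquat were taken as saline.

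The members and lists were chosen with earlier results of these data known. Named genes are the pair, Apod, up to 4 genes per list called in the mean paraquat effect over 3 genotypes, and for each member the 8 highest and 4 lowest correlations over 18 arrays; the regulators and targets, and the choroid plexus marker with values, were named by role, after their values were seen. Alternatives covered quantile normalization, array weights, the low-value filter, the arrays in the fit, the replicate block and each array left out. Replicate numbers were checked for pairing by correlating the deviations of same-numbered saline and paraquat arrays from their group means over 8321 genes; all 3 transgenic pairs were over 0.1, against 2 of 3 in wild-type and 0 of 3 in knock-out. The labels state no shared litter or day.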

Additional observations from a re-analysis of the deposited data

How the results depend on the processing

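Of 394 recomputed values, 374 kept their direction and their side of the threshold. The sign differed in 9, all of small differences that were not called. Among them, Rbm3/Rbm3-ps in knock-out minus wild-type under saline was -0.023 with array weights and -0.027 to 0.050 with 1 array left out, and Cirbp in transgenic minus knock-out under saline was -0.039 without the third transgenic arrays of both treatments and -0.039 to 0.23 with 1 array left out. With 1 array left out, the paraquat effects in transgenic mice ran from -0.046 to 0.22 for Cirbp and from -0.066 to 0.31 for Rbm3/Rbm3-ps, and Cirbp in transgenic minus wild-type under saline from -0.21 to 0.06. The knock-out difference of Rbm3/Rbm3-ps passed with quantile normalization (0.61, adjusted p 0.028), array weights (0.61, adjusted p 2.0e-05) and without the 6 transgenic arrays (0.50, adjusted p 0.0100), the last chosen after seeing the data. The adjusted p by limma for Rbm3/Rbm3-ps in knock-out reached 0.16 in other alternatives and 0.19 with 1 array left out. With array weights its transgenic paraquat effect was 0.40 (adjusted p 0.033), the Cirbp effect of transgenic minus knock-out was -0.81 (adjusted p 0.0040), and that of knock-out minus wild-type was -0.16. These weighted results rest mostly on single arrays of 3 groups. The weights were 4.12, 0.057 and 0.98 in knock-out paraquat, 0.22, 2.23 and 0.32 in transgenic saline, and 0.26, 4.63 and 0.32 in transgenic paraquat. With only the arrays of the groups compared, 3 calls were lost: Cirbp in knock-out (0.76, adjusted p 0.072), Cirbp in transgenic minus knock-out under paraquat (-0.58, adjusted p 0.15) and Rbm3/Rbm3-ps in transgenic minus wild-type under saline (-0.71, adjusted p 0.050); these fits hold fewer arrays. Other causes were not tested.

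Leaving out each array gave 0.62 to 0.90 for Cirbp in knock-out and 0.65 to 0.73 and 0.42 to 0.56 for Rbm3/Rbm3-ps in wild-type and knock-out. It gave -0.72 to -0.43 for Cirbp in transgenic minus knock-out under paraquat, and -0.87 to -0.50 for Rbm3/Rbm3-ps in transgenic minus wild-type under saline. The saline and paraquat arrays of the same number had deviations correlated at 0.13 to 0.42 in transgenic mice, at 0.09 to 0.34 in wild-type and at -0.28 to -0.09 in knock-out. Over all pairs of groups, also those of different genotypes, same-numbered arrays ran from -0.34 to 0.42, with 17 of 45 over 0.1. These correlations alone thus do not show whether the numbers pair the arrays of any genotype. In transgenic mice, however, same-numbered arrays also shared control values. The Dap control read 11.97 and 12.27 on saline and paraquat arrays 1, against 10.36 to 10.98 on all arrays but these. The 3′ to 5′ difference of the actin control was 0.49 and 0.47 on saline and paraquat arrays 3, the lowest of all. The source of these shared values was not tested. A replicate block within the transgenic arrays, added after seeing the data, gave adjusted p-values of 1.0 for the transgenic paraquat effects of both genes (0.07 and 0.14) and 0.31 and 0.88 for Cirbp and Rbm3/Rbm3-ps in transgenic minus knock-out. With the replicate block over all arrays Cirbp in knock-out stayed at 0.76 (adjusted p 0.0082), Rbm3/Rbm3-ps in wild-type at 0.69 (adjusted p 0.0095), and no call of the pair changed. Each gene has 1 probe set, so the planned correlation with another probe set was not run. Dim probe signal over background could not be judged without scanner values.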
